A study of Homo sapiens with 4 samples.

Results

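Wild-type YAP was compared with an empty vector in MCF10A cells, an immortalized and non-tumorigenic human mammary epithelial cell line. The comparison used 2 of the study's 4 arrays, 1 for each condition, and covered every gene that the arrays could measure: 12759 of 19775 genes, each read through its brightest probe set (by the mean of the 4 arrays) among those carrying 1 gene symbol. The vector culture was infected with retrovirus produced from pQCXIH alone, and the YAP-WT culture with retrovirus produced from pQCXIH-YAP-WT. All cultures grew in DMEM/F12 with horse serum, EGF, insulin, hydrocortisone, cholera toxin and P/S, so that both arrays compared here come from infected cells under growth factor. The other 2 arrays, from cells with pQCXIH-YAP-S94A and pQCXIH-YAP-W1W2, helped to set the floor and the filter on dim genes, and their levels are given for some leading genes. Whether the lines were clones or pools, how long after infection they were harvested and how much YAP protein they made is not stated in the sources used here.

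YAP is a transcriptional coactivator at the end of the Hippo pathway. The Hippo kinases phosphorylate it and hold it in the cytoplasm of crowded or resting epithelial cells, and unphosphorylated YAP enters the nucleus and joins TEAD proteins on DNA. In mammary epithelial cells it is known for promoting growth without growth factor and a shift toward a mesenchymal shape, and its best known transcripts encode secreted matricellular proteins. The groups described here lie mostly outside that classical set.

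In the deposited table each probe set had 1 intensity per array. A floor of 72.9, the 40th percentile of all intensities of the 4 arrays, replaced every lower value. Where 1 of the compared arrays lay at the floor, the fold gives only a bound and is printed with the words at least. With 1 array per condition no test, standard error or p-value could be given, so a gene was counted when it differed at least 2-fold. By that rule 1162 measured genes, 9.11% of them, were higher in YAP-WT and 631, 4.95%, were lower, so 14.1% differed in either direction. Past 4-fold, 183 genes (1.43%) were higher and 92 (0.721%) lower, 2.16% together. The median gene was 0.14 (log2) higher in YAP-WT, and medians of gene lists are given relative to it. With each array centred on its own median the counts were 869 higher and 864 lower, so the excess of higher genes rests on the scale of the deposited values.

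Several values bear on how far single genes can be read. Of the 1162 higher genes, 499 had another measured probe set, which was also at least 2-fold higher for 280 (56.1%); for the lower genes this held for 112 of 205 (54.6%). With the measured genes cut into 4 equal bins of mean intensity, 21.6% of the dimmest bin differed 2-fold and 9.03% of the brightest. The bacterial hybridization controls were dimmer in YAP-WT by 0.52 (BioB), 0.34 (BioC) and 0.30 (BioD) on the log2 scale and differed by 0.02 for Cre, and the 3′ to 5′ ratio of the actin controls was 1.16 in vector and 1.07 in YAP-WT. The part of these differences in the results was not tested. YAP1 itself was not higher in YAP-WT by its brightest probe set, at 4086 in vector and 3462 in YAP-WT, and its other probe sets read 3568 and 3908, and 1025 and 872. Whether these probe sets lie in the part of YAP1 that the virus carries was not tested, so they do not check the label of the array. The markers fixed for basal mammary cells were bright on both arrays, with summed intensities of 80018 and 92692, and KRT5 and KRT14 among them. Of 4 immune markers 1 was above the floor in vector and 2 in YAP-WT, with LYZ at the floor in both. CDH5, TEK and VWF of the 5 endothelial markers were at the floor in both arrays, and the other 2 were above it. Fibroblast markers were above the floor for 4 of 7 in vector and 5 in YAP-WT, with LUM at the floor in both. Their summed intensities were 10121 in vector and 5307 in YAP-WT, and most of both sums came from DCN. Of the 3 measured fibroblast markers 1 was at least 2-fold higher and 1, DCN, lower.

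**Figure D1:**
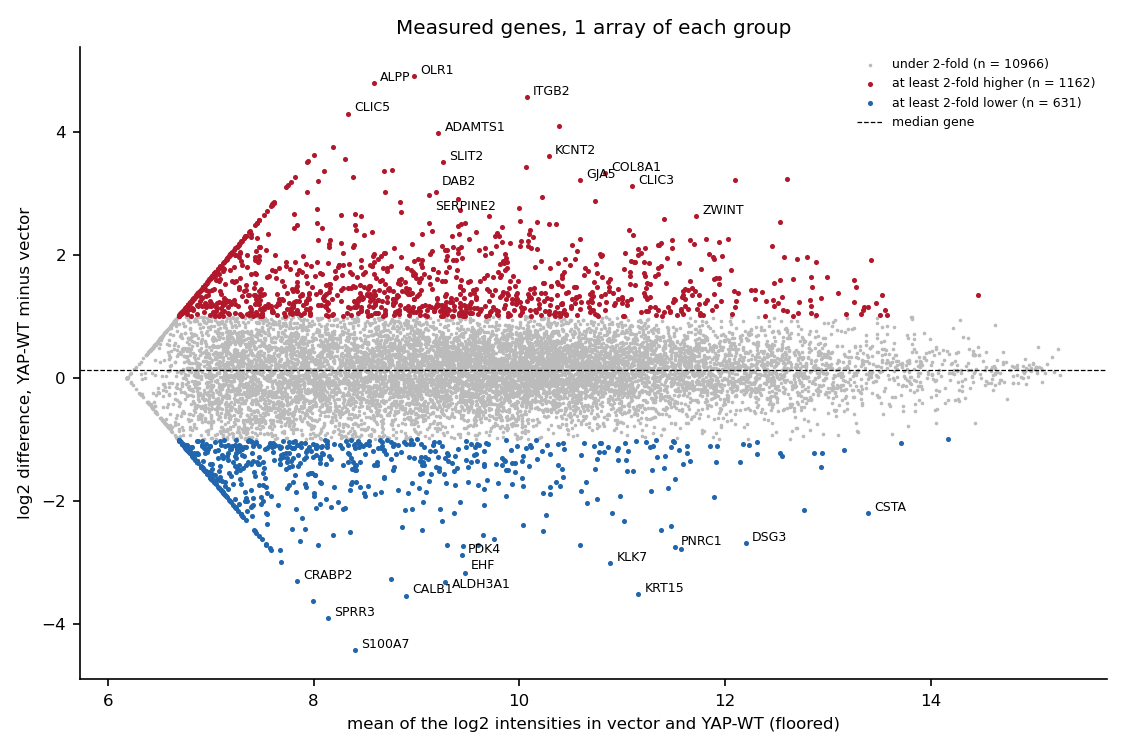
Log2 difference between YAP-WT and vector for each of the 12759 measured genes, against the mean of its log2 intensities in the 2 arrays after flooring; red points are the 1162 genes at least 2-fold higher, blue points the 631 at least 2-fold lower and the dashed line the median gene. The straight edges that open from the left are genes with 1 array at the floor, and the spread of the points narrows toward bright genes.

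Outside the best known YAP transcripts, several genes far higher in YAP-WT encode endocytic, granule and membrane proteins. DAB2, an endocytic adaptor for lipoprotein receptors, read 205 in vector and 1668 in YAP-WT, 8.15-fold higher. Its 4 measured probe sets lay between 2.98 and 3.41 (log2), so the difference did not rest on a single probe set. DNAJC6, the auxilin that strips clathrin from coated vesicles, stood at 433 in vector and 3307 in YAP-WT, 7.64-fold higher. SRGN, a proteoglycan of secretory granules, measured 632 in vector and 4609.9 in YAP-WT, 7.30-fold higher, and its probe sets were between 2.87 and 3.30 (log2). The scavenger receptor SCARA3 read 170.1 in vector and 1239 in YAP-WT, 7.28-fold higher. These genes were all well above the floor in both arrays.

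Among genes that were dark in vector, SV2B, a synaptic vesicle glycoprotein, lay under the floor in vector and at 902 in YAP-WT, at least 12.4-fold higher. The phospholipase PLCB4, which works downstream of Gq-coupled receptors, lay under the floor in vector and at 827 in YAP-WT, at least 11.3-fold higher. BCAR4, a long noncoding RNA, lay under the floor in vector and at 698 in YAP-WT, at least 9.57-fold higher. Each of them was bright in YAP-WT, and their vector intensity gives only a bound. The ubiquitin ligase MARCHF4 lay under the floor in vector and at 637 in YAP-WT, at least 8.74-fold higher. PSG3, a glycoprotein of the placenta, lay under the floor in vector and at 624 in YAP-WT, at least 8.56-fold higher. The formin FMN2, which nucleates actin filaments, lay under the floor in vector and at 523 in YAP-WT, at least 7.17-fold higher. NAV3, a microtubule-binding navigator protein, lay under the floor in vector and at 514 in YAP-WT, at least 7.05-fold higher. ITGB2-AS1, the antisense neighbour of the integrin gene ITGB2, lay under the floor in vector and at 513 in YAP-WT, at least 7.04-fold higher, beside 221 and 5244 for ITGB2 itself. Both RNAs of that locus therefore differed the same way; whether the probe sets read only their own strand was not tested.

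**Figure D2:**
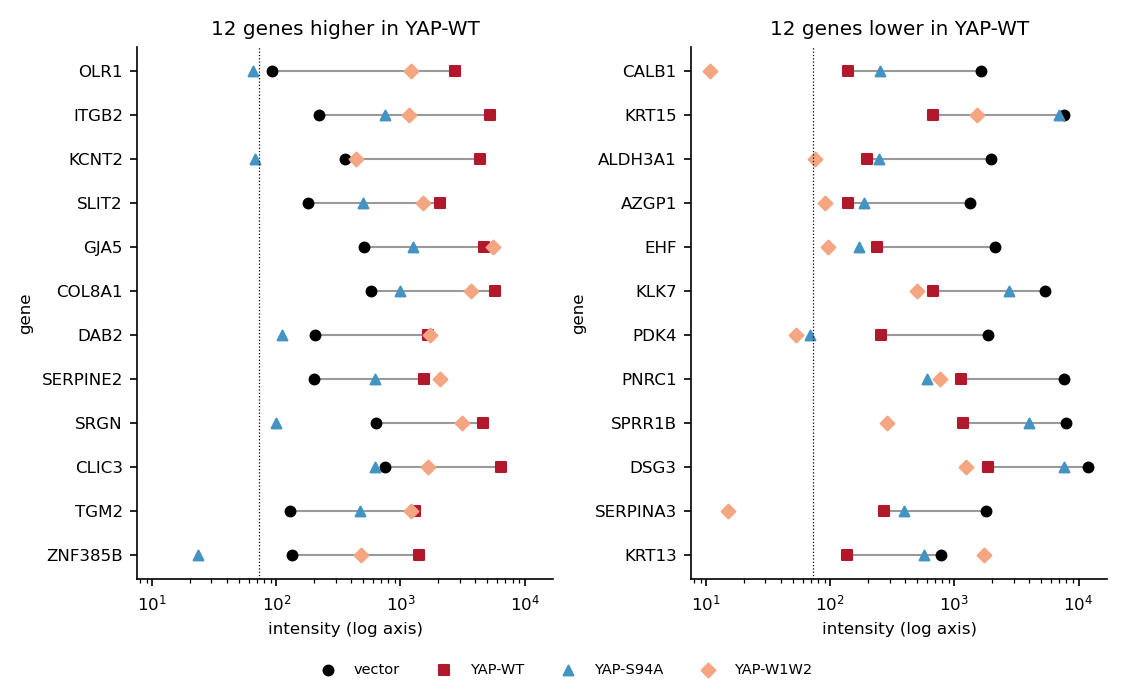
Intensity, on a log axis, of 12 genes higher in YAP-WT than in vector (left) and 12 genes lower (right) in each of the 4 arrays, with 1 point per array; the grey line joins vector and YAP-WT, and the dotted line is the floor of 72.9. Points left of the dotted line have no order among themselves.

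Ion channels and other transport proteins of the membrane were uneven in their differences, with a few large ones. Of 26 measured chloride and anoctamin channel genes 6 were 2-fold or more higher and 1 lower. CLIC3, an intracellular chloride channel of the endosomal recycling route, stood at 746 in vector and 6447 in YAP-WT, 8.64-fold higher, and its relative CLIC5 lay under the floor in vector and at 1432 in YAP-WT, at least 19.6-fold higher. LRRC8C, a subunit of the volume-regulated anion channel, lay under the floor in vector and at 307 in YAP-WT, at least 4.21-fold higher, and the chloride-proton exchanger CLCN5 measured 119 in vector and 404 in YAP-WT, 3.40-fold higher. In the other direction CLCA2, a basal epithelial channel regulator, read 6565 in vector and 1239.5 in YAP-WT, 5.30-fold lower, with 4 probe sets between −2.70 and −2.40 (log2). The members of this list thus ran from large bounds on 1 side to a bright gene that was lower on the other.

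The potassium channel list had 6 of 35 higher and 0 lower, and 1 of the 6 was not a channel gene but the antisense RNA KCNMA1-AS1. The sodium-activated channel KCNT2 stood at 359 in vector and 4360.0 in YAP-WT, 12.2-fold higher. KCNJ2, an inward rectifier, measured 87.5 in vector and 341 in YAP-WT, 3.89-fold higher, and the leak channel KCNK1 read 3220.1 in vector and 7864 in YAP-WT, 2.44-fold higher. The list median was 0.13 relative to the median gene, so most of its members differed little. Sodium, calcium and TRP channels were split evenly, with 3 of 39 higher and 3 lower. TRPM4, a calcium-activated cation channel, stood at 272 in vector and 81.9 in YAP-WT, 3.32-fold lower, and the T-type calcium channel CACNA1H measured 323 in vector and 105 in YAP-WT, 3.09-fold lower.

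Among 10 genes of connexins, which form gap junctions, and of the related pannexin channels 3 were higher and 1 lower. GJA5, a connexin of vessels and heart, read 505 in vector and 4682 in YAP-WT, 9.27-fold higher, and GJC1, a connexin of smooth muscle, stood at 345 in vector and 943 in YAP-WT, 2.73-fold higher. GJB5, an epidermal connexin, measured 1632 in vector and 678 in YAP-WT, 2.41-fold lower. The family therefore held members that differed in opposite directions, and its median was 0.02 relative to the median gene. The water and glycerol channel AQP3 read 1415 in vector and 309.7 in YAP-WT, 4.57-fold lower. Of the sodium pump subunits, ATP1B1 stood at 3507 in vector and 8297 in YAP-WT, 2.37-fold higher, whereas ATP1B3 measured 19308 in vector and 9292 in YAP-WT, 2.08-fold lower. ATP13A3, a polyamine transporter, read 988 in vector and 4944 in YAP-WT, 5.00-fold higher. Among nutrient carriers the cystine exchanger SLC7A11 stood at 669 in vector and 1815 in YAP-WT, 2.71-fold higher, the glucose transporter SLC2A3 lay under the floor in vector and at 279 in YAP-WT, at least 3.83-fold higher, and the monocarboxylate carrier SLC16A4 measured 1606 in vector and 490.4 in YAP-WT, 3.27-fold lower. The drug efflux pump ABCC2 was at 505 in vector and under the floor in YAP-WT, at least 6.93-fold lower, and ABCA12, a lipid transporter of the skin barrier, read 1038 in vector and 237 in YAP-WT, 4.37-fold lower.

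Receptors for hormones and growth factors did not lean to 1 side. Of 52 measured G protein-coupled receptor genes 8 were higher and 9 lower, and the list median equalled that of all measured genes within 0.01 (log2). PTGER4, a prostaglandin receptor, stood at 128 in vector and 412 in YAP-WT, 3.23-fold higher. The adhesion receptor ADGRG6 measured 1426 in vector and 4134 in YAP-WT, 2.90-fold higher, and S1PR1, a sphingosine phosphate receptor, read 165 in vector and 469.7 in YAP-WT, 2.85-fold higher. Among the lower ones both bradykinin receptors were found: BDKRB2 stood at 297 in vector and 76.0 in YAP-WT, 3.91-fold lower, and BDKRB1 measured 258 in vector and 111 in YAP-WT, 2.33-fold lower. The serotonin receptor HTR7 was at 234 in vector and under the floor in YAP-WT, at least 3.21-fold lower.

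Of 28 receptor tyrosine kinase genes 3 were higher and 5 lower. FGFR3 read 924 in vector and 253 in YAP-WT, 3.65-fold lower, and DDR2, a collagen receptor, stood at 241 in vector and 110.2 in YAP-WT, 2.18-fold lower. ERBB2 measured 873 in vector and 1797 in YAP-WT, 2.06-fold higher. Among their ligands and related cytokine receptors 6 of 28 were higher and 3 lower. FGF9 read 144 in vector and 801 in YAP-WT, 5.57-fold higher, and FGF2, basic fibroblast growth factor, stood at 214 in vector and 687 in YAP-WT, 3.21-fold higher. The receptor LIFR measured 121 in vector and 573 in YAP-WT, 4.72-fold higher, and its partner IL6ST, a signalling chain shared by a family of cytokines, read 5104 in vector and 10559 in YAP-WT, 2.07-fold higher. The colony-stimulating factor CSF3 was at 317 in vector and under the floor in YAP-WT, at least 4.35-fold lower. FGF11, another member of the fibroblast growth factor family, stood at 288 in vector and 136 in YAP-WT, 2.12-fold lower.

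Integrins, which tie cells to matrix, were mostly under 2-fold, with 3 of 19 higher and 2 lower. ITGB5 measured 1157 in vector and 2658 in YAP-WT, 2.30-fold higher, and ITGB8 read 2964 in vector and 1342 in YAP-WT, 2.21-fold lower; both pair with the alpha-v subunit. Cadherin genes were split, with 4 of 34 higher and 4 lower. CDH2, N-cadherin, stood at 575 in vector and 1593 in YAP-WT, 2.77-fold higher, and the protocadherin PCDH7 measured 336 in vector and 1368 in YAP-WT, 4.07-fold higher. The desmosomal cadherins DSG3 and DSC2 were lower: DSG3 read 11952 in vector and 1863 in YAP-WT, 6.42-fold lower, and DSC2 stood at 5028 in vector and 1899 in YAP-WT, 2.65-fold lower. FAT2, a giant cadherin of squamous epithelium, measured 727 in vector and 235 in YAP-WT, 3.10-fold lower. Of 23 tetraspanins 2 were higher and 0 lower, and the list median was 0.38 relative to the median gene.

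Genes of the matrix differed by family. Of 24 measured collagen genes 8 were higher and 2 lower, while their median lay only 0.15 above the median gene, and of 10 laminin and nidogen genes 0 were higher and 1 lower. Basement membrane collagen IV is built from 6 chains whose genes lie in 3 head-to-head pairs. COL4A1 read 931 in vector and 4941 in YAP-WT, 5.31-fold higher, and COL4A2 stood at 1947 in vector and 7436 in YAP-WT, 3.82-fold higher. COL4A3 lay under the floor in vector and at 339.6 in YAP-WT, at least 4.66-fold higher, and COL4A4 measured 297 in vector and 1692 in YAP-WT, 5.70-fold higher, while another of its probe sets differed by −0.42 (log2). COL4A5 read 3424 and 4359.5, and COL4A6 2339 and 1756, both under 2-fold. The genes of the first and second pair were therefore at least 2-fold higher and those of the third were not.

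The starts of COL4A1 and COL4A2 lie 127 bases apart in the RefSeq promoter table (GRCh38.p14), those of COL4A3 and COL4A4 419 and those of COL4A5 and COL4A6 380. The COL4A1 window (chr13:110307108-110307407, minus strand) is printed because its upstream part also serves as the upstream part of COL4A2 on the other strand. Capitals mark the 127 bases from the COL4A2 start to the COL4A1 start.
COL4A1: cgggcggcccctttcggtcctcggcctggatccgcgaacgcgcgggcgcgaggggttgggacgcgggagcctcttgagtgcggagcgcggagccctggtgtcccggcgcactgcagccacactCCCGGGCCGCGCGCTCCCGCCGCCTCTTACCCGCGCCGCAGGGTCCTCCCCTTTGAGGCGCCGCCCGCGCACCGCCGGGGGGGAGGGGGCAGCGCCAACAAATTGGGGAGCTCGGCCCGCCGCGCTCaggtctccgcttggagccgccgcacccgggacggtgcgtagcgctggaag

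COL8A1, a short-chain collagen of vessel walls, read 578 in vector and 5794 in YAP-WT, 10.0-fold higher, and COL12A1, which decorates collagen I fibrils, stood at 3611 in vector and 14153 in YAP-WT, 3.92-fold higher. COL1A1, of fibrillar collagen I, measured 452 in vector and 1105 in YAP-WT, 2.45-fold higher, while another of its probe sets differed by −2.29 (log2). The mean over the probe sets of COL1A1 was −0.74 (log2), so its direction depends on the probe set. COL2A1 and COL8A2 were lower, at 217 and 101, 2.15-fold lower, and 187 and 86.9, 2.15-fold lower. Genes that modify collagen were higher as far as they differed at all, 3 of 16 with 0 lower and a median of 0.50 relative to the median gene. SERPINH1, the collagen chaperone of the endoplasmic reticulum, read 508 in vector and 2493 in YAP-WT, 4.91-fold higher. LOXL2, which cross-links collagen, stood at 1032 in vector and 4202 in YAP-WT, 4.07-fold higher, and COLGALT1, which adds galactose to collagen, measured 2271 in vector and 5244 in YAP-WT, 2.31-fold higher.

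In the list of matricellular and elastic fibre genes, which overlaps the classical matrix genes, 10 of 25 were higher and 1 lower. Several microfibril genes were higher: FBN1, a fibrillin, read 1454 in vector and 4198 in YAP-WT, 2.89-fold higher; FBN2 stood at 2476 in vector and 14285 in YAP-WT, 5.77-fold higher; and MFAP5 measured 3954 in vector and 14533 in YAP-WT, 3.68-fold higher. LTBP2, which sits on microfibrils, read 322 in vector and 1214 in YAP-WT, 3.77-fold higher, and the fibulin FBLN5 lay under the floor in vector and at 839 in YAP-WT, at least 11.5-fold higher. The measured matrilins of this list went opposite ways. MATN3 lay under the floor in vector and at 419 in YAP-WT, at least 5.74-fold higher. MATN2 stood at 748 in vector and 202 in YAP-WT, 3.71-fold lower.

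The list of enzymes that build and edit heparan and chondroitin sulfate had 8 of 34 higher and 2 lower. It was matched by symbol, so some sulfotransferases in it may act on other sugar chains. EXT1, which polymerizes heparan sulfate, stood at 2341 in vector and 5647 in YAP-WT, 2.41-fold higher. Of the chondroitin sulfotransferases, CHST3 measured 1086 in vector and 3197 in YAP-WT, 2.94-fold higher; CHST7 read 159.8 in vector and 700.3 in YAP-WT, 4.38-fold higher; CHST11 lay under the floor in vector and at 328 in YAP-WT, at least 4.50-fold higher; and CHST14, which acts on dermatan sulfate, stood at 468 in vector and 1215 in YAP-WT, 2.60-fold higher. SULF2, which removes sulfate from heparan chains outside the cell, measured 1827 in vector and 595 in YAP-WT, 3.07-fold lower. The proteoglycan core protein gene GPC6 read 1078 in vector and 268 in YAP-WT, 4.03-fold lower, and DCN, decorin, stood at 9344 in vector and 3884 in YAP-WT, 2.41-fold lower. The second lower member of the list was CHST2, 1 of the sulfotransferases that may act on other chains, at 2076 and 930.3, 2.23-fold lower.

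Among proteases of the matrix 6 of 39 metalloprotease and TIMP genes were higher and 4 lower. ADAMTS15 measured 155 in vector and 633 in YAP-WT, 4.09-fold higher, and ADAMTSL4, which binds fibrillin and has no protease domain, read 394 in vector and 2658 in YAP-WT, 6.75-fold higher. MMP28, a metalloprotease of epithelia, stood at 1939 in vector and 823 in YAP-WT, 2.36-fold lower. The serpin SERPINE2, an inhibitor of thrombin and plasminogen activators, measured 199.6 in vector and 1562 in YAP-WT, 7.82-fold higher. F3, tissue factor, read 2248 in vector and 6893 in YAP-WT, 3.07-fold higher, and the serine protease PRSS23 stood at 236 in vector and 1199 in YAP-WT, 5.09-fold higher. Of the glycosyltransferases of mucin-type and sialylated chains 9 of 54 were higher and 3 lower. ST6GAL1, which adds terminal sialic acid, measured 3407 in vector and 873 in YAP-WT, 3.90-fold lower.

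Several groups of cytoskeletal genes lay above the median gene. Of 43 actin cytoskeleton and SRF target genes 11 were higher and 2 lower, and the median lay 0.52 above the median gene. TAGLN, the smooth muscle protein transgelin, read 1913 in vector and 7449 in YAP-WT, 3.89-fold higher. CNN3, a calponin, stood at 899 in vector and 2507 in YAP-WT, 2.79-fold higher, and TPM2, a tropomyosin, measured 3239 in vector and 8574 in YAP-WT, 2.65-fold higher. The focal adhesion genes ZYX and ILK read 1782 and 3822, 2.15-fold higher, and 1892 and 3808, 2.01-fold higher. SORBS2, an adaptor of stress fibres, read 1057 in vector and 358 in YAP-WT, 2.95-fold lower, and ACTG2, the enteric smooth muscle actin, stood at 253 in vector and 78.6 in YAP-WT, 3.22-fold lower. ACTB, a reference gene here, was 32866 in vector and 45609 in YAP-WT, 1.39-fold higher; GAPDH was 1.20-fold higher and TBP 1.00-fold higher.

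Of 15 tubulin genes 5 were higher and 0 lower, and the list median was 0.73 relative to the median gene. TUBB3, best known from neurons, measured 7215 in vector and 16103 in YAP-WT, 2.23-fold higher, and TUBB6 read 8146 in vector and 16563 in YAP-WT, 2.03-fold higher. TUBG1, the gamma-tubulin of the centrosome, stood at 1709.9 in vector and 3800.4 in YAP-WT, 2.22-fold higher. Kinesins, the motors of microtubules, were higher in 10 of 26 and lower in 0. The mitotic kinesin KIF14 measured 479.8 in vector and 2235 in YAP-WT, 4.66-fold higher, KIF4A read 416 in vector and 1843 in YAP-WT, 4.44-fold higher, and KIF11, which pushes the spindle poles apart, stood at 596 in vector and 1517 in YAP-WT, 2.54-fold higher. All of the higher kinesins but KIF5A, a neuronal transport motor at 77.9 and 238, 3.06-fold higher, while another of its probe sets differed by −1.36 (log2), are motors of dividing cells.

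The nuclear lamina and non-keratin intermediate filament list had 5 of 16 higher and 1 lower, and the list median was 0.72. LMNB1 measured 223 in vector and 625 in YAP-WT, 2.80-fold higher, LMNB2 read 661 in vector and 1523 in YAP-WT, 2.30-fold higher, and LMNA stood at 4892 in vector and 10970.4 in YAP-WT, 2.24-fold higher, while another of its probe sets differed by −1.04 (log2). TMPO, a lamina-associated protein, measured 1321 in vector and 4287 in YAP-WT, 3.25-fold higher. SYNE2, which links the nucleus to actin, read 7057 in vector and 3308 in YAP-WT, 2.13-fold lower. By their brightest probe sets the 3 lamin genes were thus higher together and their cytoplasmic link SYNE2 was lower. The direction of LMNA depends on the probe set.

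Keratins differed in both directions. Of 25 measured keratin genes 6 were higher and 5 lower, and the list median was −0.14 relative to the median gene. Several simple epithelial keratins were higher: KRT18 stood at 5609 in vector and 16989.6 in YAP-WT, 3.03-fold higher, its partner KRT8 measured 3845 in vector and 8932 in YAP-WT, 2.32-fold higher, and KRT7 read 14143 in vector and 35969.5 in YAP-WT, 2.54-fold higher, while another of its probe sets differed by −0.93 (log2). KRT80 stood at 133 in vector and 602 in YAP-WT, 4.52-fold higher, and KRT4, a keratin of wet stratified epithelia, measured 1138 in vector and 4548 in YAP-WT, 4.00-fold higher. KRT13, the partner of KRT4, read 779 in vector and 138 in YAP-WT, 5.66-fold lower. KRT16, a keratin of stressed epidermis, stood at 12039 in vector and 5187 in YAP-WT, 2.32-fold lower, and KRT1, of differentiating epidermis, measured 550.1 in vector and 140.3 in YAP-WT, 3.92-fold lower. KRT15 had the lowest value of the measured keratins, −3.50 (log2). The basal pair was nearly level, KRT5 at 30819.8 and 33856 and KRT14 at 32533 and 36341. Of the 5 measured luminal mammary markers 4 were higher, EPCAM and GATA3 beside KRT8 and KRT18, and the sixth, the simple keratin gene KRT19, was under the floor in both arrays. The summed intensity of the 6 was 12802 in vector and 34408 in YAP-WT. GATA3, a luminal transcription factor, read 2679 in vector and 7108 in YAP-WT, 2.65-fold higher. In these whole cultures more cells of a kind and more RNA per cell cannot be told apart.

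**Figure D3:**
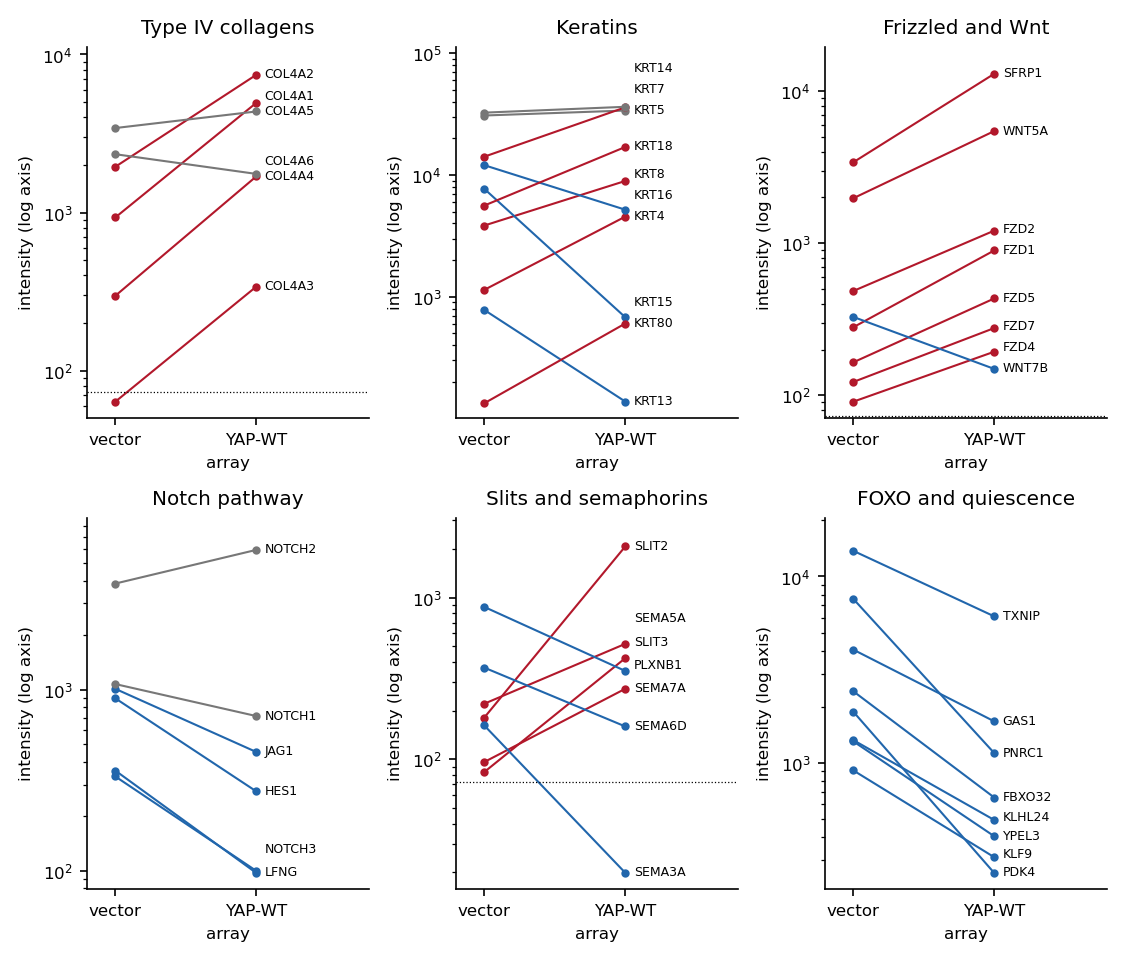
Intensity in vector and in YAP-WT, on log axes, for members of 6 gene families, with 1 point per array and a line for each gene; red lines are genes at least 2-fold higher in YAP-WT, blue lines genes at least 2-fold lower, grey lines genes between, and the dotted line is the floor of 72.9. COL4A1 to COL4A4 and the frizzled genes run upward, the Notch genes LFNG, NOTCH3, HES1 and JAG1 and the 8 FOXO and quiescence genes downward, and the keratins in both directions.

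Among signalling pathways the Wnt list held more higher than lower genes. Of 30 measured Wnt ligands, receptors and antagonists 10 were higher and 1 lower. The median was 0.31 relative to the median gene, under the 0.5 at which a list was called shifted. Over the processing settings the unadjusted median ran from 0.06 to 0.64 (log2). Wnt proteins bind frizzled receptors on the cell surface, and 5 frizzled genes were higher. FZD1 stood at 280.4 in vector and 897 in YAP-WT, 3.20-fold higher, FZD2 measured 485 in vector and 1211 in YAP-WT, 2.49-fold higher, while another of its probe sets differed by −0.01 (log2), and FZD5 read 165 in vector and 434 in YAP-WT, 2.63-fold higher. FZD4 and FZD7 read 90.9 and 194, 2.13-fold higher, and 123 and 277, 2.26-fold higher. The ligand WNT5A, which mostly signals without beta-catenin, stood at 1976 in vector and 5462 in YAP-WT, 2.76-fold higher, and WNT7B measured 328 in vector and 149 in YAP-WT, 2.20-fold lower. Among antagonists, SFRP1, a secreted decoy, read 3406 in vector and 13001 in YAP-WT, 3.82-fold higher, and ZNRF3, which removes frizzled from the membrane, stood at 355 in vector and 741 in YAP-WT, 2.09-fold higher. AXIN1, the scaffold that destroys beta-catenin, measured 97.1 in vector and 544 in YAP-WT, 5.60-fold higher, and the repressor TCF7L1 read 95.7 in vector and 313 in YAP-WT, 3.27-fold higher. The higher genes thus included receptors, a ligand and antagonists.

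In the Notch list 0 of 23 were higher and 4 lower. The list median was −0.35 relative to the median gene, but the unadjusted median turned to 0.15 (log2) with the filter on dim genes at the 75th percentile. The ligand JAG1 stood at 1013 in vector and 454 in YAP-WT, 2.23-fold lower, and the receptor NOTCH3 measured 333 in vector and 100.1 in YAP-WT, 3.32-fold lower. LFNG, which adds sugar to Notch, read 358 in vector and 97.5 in YAP-WT, 3.67-fold lower, and HES1, the classical Notch target, stood at 898 in vector and 275 in YAP-WT, 3.26-fold lower. NOTCH1 and NOTCH2, at 1076 and 716 and at 3859 and 5921, were under 2-fold in opposite directions. Hedgehog genes differed likewise, 1 of 11 higher and 4 lower. The co-receptors BOC, CDON and GAS1 were lower: BOC measured 259 in vector and 76.5 in YAP-WT, 3.39-fold lower; CDON read 239 in vector and 118 in YAP-WT, 2.03-fold lower; and GAS1 stood at 4049.6 in vector and 1670.3 in YAP-WT, 2.42-fold lower, with a dim probe set at 0.69 (log2). The transducer SMO measured 228 in vector and 103 in YAP-WT, 2.22-fold lower, and the transcription factor GLI2 read 132 in vector and 283 in YAP-WT, 2.14-fold higher. All 3 co-receptors of the list that differed 2-fold were lower.

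The axon guidance list held 9 of 36 higher and 3 lower, and the list median was 0.04. The antisense RNA SLIT3-AS1 is 1 of the 9, and UNC50 entered the 36 by its symbol alone. Slits are secreted repellents that bind Robo receptors. SLIT2 stood at 181 in vector and 2071 in YAP-WT, 11.4-fold higher, and SLIT3 measured 83.5 in vector and 422 in YAP-WT, 5.06-fold higher. SEMA7A, a membrane-anchored semaphorin, read 96.3 in vector and 273 in YAP-WT, 2.84-fold higher, and SEMA5A stood at 221 in vector and 518 in YAP-WT, 2.35-fold higher. SEMA3A, a secreted repellent, was at 162 in vector and under the floor in YAP-WT, at least 2.22-fold lower, and SEMA6D measured 369 in vector and 159.8 in YAP-WT, 2.31-fold lower. NTN4, a netrin of basement membranes, read 705 in vector and 1744 in YAP-WT, 2.47-fold higher. Semaphorins therefore differed in both directions, while both Slits with a 2-fold difference were higher.

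The list of ERK phosphatases and Sprouty genes, which also holds a phosphatase of stress kinases, had 5 of 27 higher and 3 lower. DUSP4 stood at 392 in vector and 1938 in YAP-WT, 4.94-fold higher, and DUSP6, a cytoplasmic ERK phosphatase, measured 121 in vector and 474 in YAP-WT, 3.94-fold higher. SPRY4 read 169 in vector and 485 in YAP-WT, 2.88-fold higher, and SPRED1 stood at 283 in vector and 916 in YAP-WT, 3.24-fold higher; both act on Ras and Raf. DUSP16, a phosphatase of stress kinases, measured 728 in vector and 364 in YAP-WT, 2.00-fold lower. The early response genes did not follow 1 direction: EGR1 read 1447 in vector and 3999 in YAP-WT, 2.76-fold higher, while JUNB stood at 1774 in vector and 534 in YAP-WT, 3.32-fold lower, and NR4A1 was at 162 in vector and under the floor in YAP-WT, at least 2.22-fold lower.

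The Hippo pathway's own genes had 7 of 35 higher and 1 lower. Of the partners of YAP on DNA, TEAD1 measured 3418 in vector and 10308 in YAP-WT, 3.02-fold higher, and TEAD4 read 310.1 in vector and 1055 in YAP-WT, 3.40-fold higher. Some upstream inhibitors were higher as well. AMOTL2, which holds YAP at junctions, stood at 2764 in vector and 7223 in YAP-WT, 2.61-fold higher; WWC1, known as KIBRA, measured 759 in vector and 2132 in YAP-WT, 2.81-fold higher; FRMD6 read 2564 in vector and 5496 in YAP-WT, 2.14-fold higher; and NF2, the merlin gene, stood at 1610.2 in vector and 3373 in YAP-WT, 2.10-fold higher, while another of its probe sets differed by −0.58 (log2). WTIP, an Ajuba-type LIM protein, lay under the floor in vector and at 517 in YAP-WT, at least 7.09-fold higher. RASSF6 measured 1078 in vector and 202 in YAP-WT, 5.35-fold lower, with both probe sets at or below −2.42 (log2).

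In the TGF-beta, activin and BMP list 5 of 49 were higher and 3 lower. The follistatin-like genes FSTL1 and FSTL3 were higher, FSTL1 at 2662 and 11828, 4.44-fold higher, and FSTL3 at 1889 and 4544, 2.41-fold higher. SMAD7, the inhibitory SMAD, read 629.9 in vector and 236 in YAP-WT, 2.67-fold lower, and BMP2 stood at 531 in vector and 259.9 in YAP-WT, 2.04-fold lower. In the insulin-like growth factor axis 5 of 15 were higher and 0 lower. PAPPA, which cuts IGF-binding proteins, measured 351 in vector and 774 in YAP-WT, 2.20-fold higher, its inhibitor STC2 read 491 in vector and 1189.5 in YAP-WT, 2.42-fold higher, and IGF2BP2, an RNA-binding protein, stood at 1064 in vector and 2669 in YAP-WT, 2.51-fold higher. AKAP12, an anchor for protein kinase A, measured 192 in vector and 759.5 in YAP-WT, 3.96-fold higher. The lipid kinase PIK3C2B read 553 in vector and 3133 in YAP-WT, 5.67-fold higher, while the PI3-kinase subunits PIK3R1 and PIK3R3 were lower, at 3213 and 1413, 2.27-fold lower, and 1670.1 and 656, 2.54-fold lower.

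Lists of cell division genes were among those farthest above the median gene. Of 42 centromere and kinetochore genes 26 were 2-fold or more higher and 0 lower, and the list median was 1.12 relative to the median gene. The kinetochore joins each chromosome to the spindle, and its genes are transcribed mostly late in the cell cycle. HJURP, which loads the centromere histone CENPA, stood at 247 in vector and 1848 in YAP-WT, 7.47-fold higher. ZWINT, a scaffold of the outer kinetochore, measured 1359 in vector and 8388 in YAP-WT, 6.17-fold higher. CENPM lay under the floor in vector and at 662 in YAP-WT, at least 9.08-fold higher, and CENPF read 1107 in vector and 4721 in YAP-WT, 4.26-fold higher. CENPA itself stood at 389 in vector and 1005 in YAP-WT, 2.58-fold higher. The checkpoint kinases BUB1 and BUB1B were at 486 and 1512, 3.11-fold higher, and 889 and 2821, 3.17-fold higher.

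The replication list had 29 of 54 higher and 0 lower, and the list median was 1.02. ORC1, of the origin recognition complex, lay under the floor in vector and at 328 in YAP-WT, at least 4.49-fold higher, and ORC6 measured 327 in vector and 1403 in YAP-WT, 4.29-fold higher. Among helicase subunits, MCM5 read 488 in vector and 2159 in YAP-WT, 4.42-fold higher, MCM2 stood at 1189 in vector and 3938 in YAP-WT, 3.31-fold higher, and MCM3 measured 1552 in vector and 3758 in YAP-WT, 2.42-fold higher. CDC6, which loads the helicase, read 293 in vector and 1448 in YAP-WT, 4.94-fold higher. GINS1 stood at 233 in vector and 1061 in YAP-WT, 4.55-fold higher, GINS2 measured 304 in vector and 1532 in YAP-WT, 5.04-fold higher, while another of its probe sets differed by −0.37 (log2), and GINS4 lay under the floor in vector and at 255 in YAP-WT, at least 3.50-fold higher. PCNA, the sliding clamp, read 2379 in vector and 6098 in YAP-WT, 2.56-fold higher.

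Promoters were read for the genes of these groups, from RefSeq's table of windows that run from 250 bases before to 50 bases after a gene's start. A window was found for 10368 of the 12759 measured genes (81.3%), and of a gene with several starts, as 2962 had, the start farthest upstream was used. The cell-cycle homology region (TTTGAA or TTCGAA, either strand) stood in 18 of 35 (51.4%) of the kinetochore windows, 2 of 45 (4.44%) of the replication windows and 11.7% of all windows. The E2F element (TTTCCCGC, TTTGGCGC, TTTCGCGC or TTTGCCGC, either strand) was in 20 of 45 (44.4%) of the replication windows, 4 of 35 (11.4%) of the kinetochore windows and 5.11% of all. The pair of lists thus differed in which element their windows held, although both were higher in YAP-WT. The members of each list with the largest differences among those that held the element are printed in the GRCh38.p14 build, with the element in capitals on whichever strand it was read: HJURP (chr2:233854486-233854785, minus strand) and ZWINT (chr10:56361224-56361523, minus strand) with the cell-cycle homology region, GINS2 (chr16:85688905-85689204, minus strand) and CDC6 (chr17:40287629-40287928, plus strand) with the E2F element. In ZWINT and GINS2 the element runs on the opposite strand, so its reverse complement is seen. In HJURP the element begins 111 bases before the start and in ZWINT 17 bases before it. A match describes the letters of the window and is neither a shown binding site nor a cause.
HJURP: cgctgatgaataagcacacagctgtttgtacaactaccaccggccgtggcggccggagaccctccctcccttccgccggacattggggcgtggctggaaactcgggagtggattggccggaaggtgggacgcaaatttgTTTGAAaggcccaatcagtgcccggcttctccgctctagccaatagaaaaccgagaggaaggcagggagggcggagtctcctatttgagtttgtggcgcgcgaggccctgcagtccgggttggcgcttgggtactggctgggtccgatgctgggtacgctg
ZWINT: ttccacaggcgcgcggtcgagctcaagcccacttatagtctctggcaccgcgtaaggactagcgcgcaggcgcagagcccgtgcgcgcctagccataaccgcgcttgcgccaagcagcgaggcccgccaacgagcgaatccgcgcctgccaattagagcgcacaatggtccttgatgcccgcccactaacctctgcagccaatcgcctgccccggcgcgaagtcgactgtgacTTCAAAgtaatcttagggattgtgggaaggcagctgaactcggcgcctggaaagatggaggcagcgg
GINS2: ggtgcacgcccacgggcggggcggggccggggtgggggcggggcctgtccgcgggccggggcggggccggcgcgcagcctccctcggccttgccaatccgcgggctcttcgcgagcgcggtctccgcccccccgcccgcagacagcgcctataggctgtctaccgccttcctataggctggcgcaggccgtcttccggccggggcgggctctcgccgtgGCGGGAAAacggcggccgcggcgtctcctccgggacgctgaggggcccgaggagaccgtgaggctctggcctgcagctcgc
CDC6: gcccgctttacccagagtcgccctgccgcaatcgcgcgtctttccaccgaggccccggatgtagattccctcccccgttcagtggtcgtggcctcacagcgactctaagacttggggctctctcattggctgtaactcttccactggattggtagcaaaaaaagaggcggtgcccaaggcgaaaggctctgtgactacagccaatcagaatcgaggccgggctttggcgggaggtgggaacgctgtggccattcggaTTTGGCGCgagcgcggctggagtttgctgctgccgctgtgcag

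Further division lists also held more higher than lower genes. Of 29 cyclins, CDKs and CDK inhibitors 15 were higher and 2 lower. CDC25A, the phosphatase that opens S phase, stood at 88.7 in vector and 565 in YAP-WT, 6.37-fold higher, and PKMYT1, which restrains CDK1, measured 479 in vector and 2786 in YAP-WT, 5.82-fold higher. CCND1, a D-type cyclin, read 1012 in vector and 3163 in YAP-WT, 3.12-fold higher, whereas CCND2 stood at 829 in vector and 339 in YAP-WT, 2.45-fold lower. CCNG2, a cyclin of resting cells, measured 2740.3 in vector and 1194 in YAP-WT, 2.29-fold lower. The CDK inhibitor genes CDKN1A, CDKN1B, CDKN1C, CDKN2A and CDKN2D lay between −0.93 and 0.06 (log2), under 2-fold, while CDKN3, a phosphatase that acts on CDKs, read 879.6 in vector and 3535 in YAP-WT, 4.02-fold higher.

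The E2F and MuvB list had 7 of 20 higher and 0 lower. MYBL2 stood at 267 in vector and 1774 in YAP-WT, 6.63-fold higher, FOXM1 measured 291 in vector and 1640.3 in YAP-WT, 5.63-fold higher, and E2F7, a repressor E2F, read 331 in vector and 1442 in YAP-WT, 4.36-fold higher. In the homologous recombination and Fanconi list 14 of 35 were higher and 0 lower, against 2 of 32 and 0 for mismatch, base and nucleotide excision repair. RMI2, of the BLM dissolvasome, stood at 86.7 in vector and 801 in YAP-WT, 9.24-fold higher. RAD51AP1 measured 248 in vector and 1304 in YAP-WT, 5.26-fold higher, BRCA1 read 182 in vector and 687 in YAP-WT, 3.79-fold higher, and EXO1 stood at 274 in vector and 1036 in YAP-WT, 3.78-fold higher. NEIL3, a glycosylase, measured 244 in vector and 707 in YAP-WT, 2.90-fold higher. Excision repair genes were thus near the background share of 9.11%, while recombination genes were well above it.

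Chromosome structure genes were higher in 7 of 25 for cohesin and condensin. The condensin I subunits NCAPH and NCAPG were at 132 and 622, 4.73-fold higher, and 407 and 1626, 4.00-fold higher. SMC4 read 2158 in vector and 5502 in YAP-WT, 2.55-fold higher. Histone genes went the other way as a list, with 3 of 26 higher, 5 lower and a list median of −0.53. The higher ones were the variants H2AX, at 1622 and 4704, 2.90-fold higher, and H2AZ1, at 7437 and 17226, 2.32-fold higher, whose messages carry poly(A) tails, and the clustered gene H2AC14, at 225 and 503, 2.23-fold higher. The lower ones were clustered histone genes: H2BC5 stood at 3935 in vector and 1039 in YAP-WT, 3.79-fold lower, H4C8 measured 1209.9 in vector and 364 in YAP-WT, 3.33-fold lower, and H2AC6 read 3663 in vector and 1680.0 in YAP-WT, 2.18-fold lower. Without the filter on dim genes the histone median was 0, since genes under the floor on both arrays then count as 0.

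Nucleotide supply had 7 of 29 higher and 0 lower. RRM2, the small subunit of ribonucleotide reductase, stood at 1909.8 in vector and 9105 in YAP-WT, 4.77-fold higher. The thymidylate genes TYMS, DTYMK and TK1 were at 1827 and 7412, 4.06-fold higher; 899.6 and 3583, 3.98-fold higher; and 1126 and 4208, 3.74-fold higher. Among chromatin enzymes 10 of 81 were higher and 2 lower. UHRF1 and DNMT1, which copy DNA methylation behind the fork, read 741 and 3084, 4.17-fold higher, and 1034 and 2650.3, 2.56-fold higher. NSD2, a histone methyltransferase, measured 474 in vector and 1769.6 in YAP-WT, 3.73-fold higher, HDAC7 read 159 in vector and 709 in YAP-WT, 4.46-fold higher, and HDAC9 stood at 432 in vector and 148 in YAP-WT, 2.92-fold lower. Of 54 F-box genes 3 were higher and 2 lower, and SKP2, which marks a CDK inhibitor for destruction, measured 1316 in vector and 6224 in YAP-WT, 4.73-fold higher. KPNA2, an importin, read 5928 in vector and 16506 in YAP-WT, 2.78-fold higher.

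**Figure D4:**
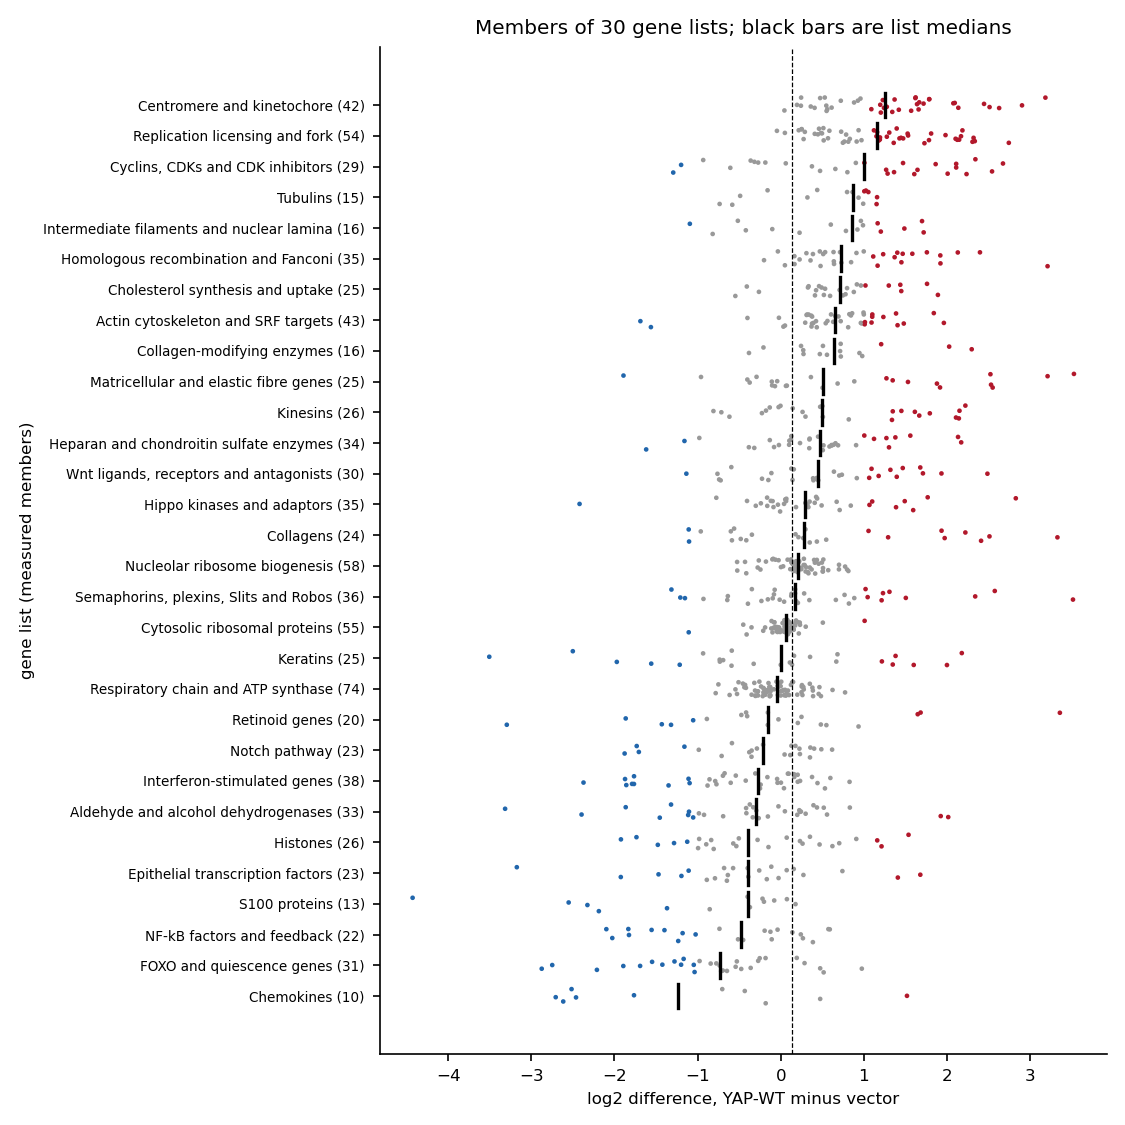
Log2 difference between YAP-WT and vector of each measured member of 30 gene lists, 1 point per gene; red points are at least 2-fold higher, blue points at least 2-fold lower, black bars are list medians, and the dashed line is the median of all measured genes at 0.14. Kinetochore and replication lists stand at the top, chemokine and FOXO lists at the bottom, and the respiratory chain and ribosomal protein lists lie close to the dashed line with little spread.

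Several lists of stratified epithelium genes held more lower than higher members. Of 21 cornified envelope genes 6 were lower and 2 higher, and the list median was −0.39 relative to the median gene. SPRR3, a cross-linked envelope protein, was at 1088 in vector and under the floor in YAP-WT, at least 14.9-fold lower. Its neighbours SPRR1A and SPRR2B were at 2851 and 509, 5.60-fold lower, and 1000.2 and 226, 4.43-fold lower. IVL, involucrin, stood at 447 in vector and 150.2 in YAP-WT, 2.98-fold lower, and SBSN measured 543 in vector and 131 in YAP-WT, 4.15-fold lower. The transglutaminase genes TGM2 and TGM3 differed from them, TGM2 at 129 and 1316, 10.2-fold higher, and TGM3 at under the floor and 223, at least 3.06-fold higher. The transglutaminase genes TGM1, TGM4 and TGM5 lay between −0.39 and −0.01 (log2), under 2-fold.

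The S100 list, calcium-binding proteins, had 0 of 13 higher and 5 lower, and the list median was −0.53. S100A7, psoriasin, was at 1568 in vector and under the floor in YAP-WT, at least 21.5-fold lower. S100A8 and S100A9, which pair as calprotectin, were at 4633 and 925, 5.01-fold lower, and 709 and 121, 5.86-fold lower. S100P read 4074 in vector and 895 in YAP-WT, 4.55-fold lower, and S100A14 stood at 6178 in vector and 2394 in YAP-WT, 2.58-fold lower. No measured S100 gene was at least 2-fold higher.

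Several kallikreins of the skin were lower: KLK5 measured 2652 in vector and 567 in YAP-WT, 4.67-fold lower, KLK8 read 729 in vector and 267 in YAP-WT, 2.73-fold lower, and KLK10 stood at 1987 in vector and 303 in YAP-WT, 6.56-fold lower. Over the whole list of kallikreins and serine proteases 5 of 31 were lower and 5 higher. The list of serpins and other protease inhibitors, which is not limited to inhibitors of kallikreins, had 7 of 31 lower and 3 higher. SERPINB13, a squamous serpin, measured 3937 in vector and 603 in YAP-WT, 6.53-fold lower, with 4 probe sets between −3.62 and −2.65 (log2) but a dim one at 0.14, and SERPINB3, a cysteine protease inhibitor, read 594 in vector and 184 in YAP-WT, 3.23-fold lower. SPINK6, which inhibits skin kallikreins, stood at 9035 in vector and 3901 in YAP-WT, 2.32-fold lower. CSTA, cystatin A, of the separate cathepsin and cystatin list, measured 22999 in vector and 5042 in YAP-WT, 4.56-fold lower. Among the higher proteases were KLK2 and KLK3, at under the floor and 153, at least 2.10-fold higher, and 417 and 896, 2.15-fold higher.

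The windows of the genes at least 4-fold lower were searched for the same elements. The AP-1 element (TGANTCA, either strand) was in 15 of 79 (19%) of them, in 5 of 145 (3.45%) of the genes at least 4-fold higher and in 4.67% of all windows. The TATA box (TATAAA, either strand) was in 19 of 79 (24.1%), 10 of 145 (6.90%) and 6.24%. The TEAD element (GGAATG, either strand) was in 7 of 79 (8.86%), 24 of 145 (16.6%) and 11.2%. At the 2-fold rule the TEAD element did not favour the higher genes. It was in 113 of 890 (12.70%) of the windows of higher genes and 63 of 484 (13.02%) of those of lower genes. SPRR3 (chr1:153001499-153001798, plus strand) and SPRR1B (chr1:153030953-153031252, plus strand), neighbours on chromosome 1, had the largest differences among the lower genes with an AP-1 element, which is in capitals.
SPRR3: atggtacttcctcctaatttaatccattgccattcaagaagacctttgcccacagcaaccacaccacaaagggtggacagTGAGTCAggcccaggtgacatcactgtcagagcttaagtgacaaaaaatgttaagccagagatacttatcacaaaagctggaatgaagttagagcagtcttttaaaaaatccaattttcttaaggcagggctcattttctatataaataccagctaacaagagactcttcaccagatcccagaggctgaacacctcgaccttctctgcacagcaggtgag
SPRR1B: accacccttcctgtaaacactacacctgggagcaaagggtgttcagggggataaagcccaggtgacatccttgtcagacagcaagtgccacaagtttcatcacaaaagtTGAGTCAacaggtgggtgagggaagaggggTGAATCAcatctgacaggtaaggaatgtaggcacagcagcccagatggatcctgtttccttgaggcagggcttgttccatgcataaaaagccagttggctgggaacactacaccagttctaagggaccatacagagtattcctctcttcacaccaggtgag

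Of 23 epithelial transcription factors 5 were lower and 2 higher, and the list median was −0.53. The ETS factors EHF and ELF3, which act in glandular and squamous epithelium, were at 2128 and 236, 9.02-fold lower, and 704 and 186, 3.79-fold lower. OVOL1 read 622 in vector and 272 in YAP-WT, 2.29-fold lower, and SOX9 stood at 991 in vector and 358 in YAP-WT, 2.77-fold lower. SIM2 measured 173 in vector and 553 in YAP-WT, 3.20-fold higher. Of the regulators of epithelial splicing, ESRP1 read 1039 in vector and 288 in YAP-WT, 3.61-fold lower, and RBM47 stood at 399 in vector and 185 in YAP-WT, 2.16-fold lower. MIR200CHG, the host of microRNAs that repress ZEB1, measured 866 in vector and 326 in YAP-WT, 2.66-fold lower, and ZEB1, which represses that locus in turn, read 148 in vector and 382 in YAP-WT, 2.58-fold higher. The list of epithelial to mesenchymal transcription factors and markers, which holds ZEB1 and CDH2, had 4 of 14 higher and 0 lower. Its median was −0.05 relative to the median gene, with 8 members positive and 6 negative. Homeobox genes outside the HOX clusters were lower in 7 of 41 and higher in 1. IRX3, IRX5 and MEIS1 were at 5675 and 2649, 2.14-fold lower; 1610.2 and 754, 2.13-fold lower; and 578 and 253, 2.29-fold lower. Of 16 HOX genes 0 differed 2-fold.

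Of 38 interferon-stimulated genes 0 were higher and 9 lower, and the list median was −0.41 relative to the median gene. These genes are switched on by interferon through STAT and IRF factors and act against viruses, and both cultures had been infected with retrovirus. IFI27 stood at 426 in vector and 82.3 in YAP-WT, 5.17-fold lower. IFI16, a DNA sensor, measured 5205 in vector and 1507 in YAP-WT, 3.45-fold lower, and SAMD9 read 2326 in vector and 685 in YAP-WT, 3.40-fold lower. BST2, tetherin, which holds budding viruses on the cell, stood at 307 in vector and 84.6 in YAP-WT, 3.62-fold lower. OAS1 and OASL were at 186 and under the floor, at least 2.55-fold lower, and 542 and 159, 3.40-fold lower. IFIT1 measured 893 in vector and 414 in YAP-WT, 2.16-fold lower, and the RNA sensor IFIH1 read 447 in vector and 209 in YAP-WT, 2.14-fold lower. The remaining 29 members lay under 2-fold.

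The interferon-stimulated element (GAAA, any 2 bases and GAAA again, either strand) stood in 18 of 30 (60%) of the windows of this list and in 2.78% of all windows, and in 4 of 79 (5.06%) of the genes at least 4-fold lower. IFI27 (chr14:94110486-94110785, plus strand) and BST2 (chr19:17405581-17405880, minus strand) are printed as the members with the largest differences that hold it, with the element in capitals.
IFI27: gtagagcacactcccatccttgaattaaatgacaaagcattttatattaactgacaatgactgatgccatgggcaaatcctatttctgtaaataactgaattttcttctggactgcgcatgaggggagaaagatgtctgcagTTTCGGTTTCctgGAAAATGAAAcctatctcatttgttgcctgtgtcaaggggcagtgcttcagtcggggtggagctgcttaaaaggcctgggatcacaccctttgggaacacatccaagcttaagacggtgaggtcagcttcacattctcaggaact
BST2: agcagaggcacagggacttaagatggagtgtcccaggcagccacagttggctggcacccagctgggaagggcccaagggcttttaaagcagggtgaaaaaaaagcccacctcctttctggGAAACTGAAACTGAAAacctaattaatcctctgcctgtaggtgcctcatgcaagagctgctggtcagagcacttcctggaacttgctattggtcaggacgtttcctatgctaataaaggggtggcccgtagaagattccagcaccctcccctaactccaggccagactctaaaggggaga

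Lists of inflammation genes held more lower than higher members. Of 36 chemokine genes 10 were measured, with 5 lower, 1 higher and a list median of −1.37. Without the filter on dim genes the chemokine median was 0. CXCL14, made by normal epithelium, was at 476 in vector and under the floor in YAP-WT, at least 6.52-fold lower, and CCL28 was at 417 in vector and under the floor in YAP-WT, at least 5.72-fold lower. CXCL8 stood at 645 in vector and 189.8 in YAP-WT, 3.40-fold lower, whereas CCL20 measured 1325 in vector and 3794 in YAP-WT, 2.86-fold higher. In the list of NF-kB factors and their feedback genes 0 of 22 were higher and 9 lower. TNFAIP3, a feedback inhibitor, read 3269 in vector and 803 in YAP-WT, 4.07-fold lower, and NFKBIZ stood at 1426 in vector and 541 in YAP-WT, 2.64-fold lower. The subunits REL and RELB were at 899.6 and 307, 2.93-fold lower, and 499.9 and 213, 2.35-fold lower. SOD2 measured 2929.9 in vector and 823 in YAP-WT, 3.56-fold lower, and TNF was at 227 in vector and under the floor in YAP-WT, at least 3.11-fold lower.

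The interleukin 1 system was lower at several levels. The ligand IL1A read 2356 in vector and 731 in YAP-WT, 3.22-fold lower, its receptor IL1R1 stood at 966 in vector and 280.4 in YAP-WT, 3.45-fold lower, and its antagonist IL1RN measured 764 in vector and 313 in YAP-WT, 2.44-fold lower. Ligand, receptor and antagonist differed in the same direction. Over all interleukins and their receptors 6 of 38 were lower and 3 higher. The complement and clotting list was split, with 4 of 21 higher and 4 lower. Among its complement genes C3 read 12984 in vector and 4746 in YAP-WT, 2.74-fold lower, CFB stood at 836 in vector and 329 in YAP-WT, 2.54-fold lower, and CFI measured 275 in vector and 88.5 in YAP-WT, 3.11-fold lower. CLU, clusterin, read 511 in vector and 1362 in YAP-WT, 2.66-fold higher, and PROS1, protein S, stood at 1864 in vector and 4522 in YAP-WT, 2.43-fold higher.

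In the prostaglandin, leukotriene and phospholipase A2 list 6 of 27 were higher and 3 lower. PLA2G4A, which frees arachidonic acid, measured 509.6 in vector and 1589 in YAP-WT, 3.12-fold higher, and PTGS2, which makes the precursor of the prostaglandins, read 181 in vector and 1172 in YAP-WT, 6.49-fold higher. HPGD, which inactivates prostaglandins, was at 498 in vector and under the floor in YAP-WT, at least 6.83-fold lower, with 3 probe sets between −2.77 and −1.58 (log2). The lipoxygenase ALOX15B stood at 1829.5 in vector and 732 in YAP-WT, 2.50-fold lower. Another phospholipase, PLA2G2A, measured 265 in vector and 99.7 in YAP-WT, 2.65-fold lower, and ALOX5, which starts leukotriene synthesis, lay under the floor in vector and at 167 in YAP-WT, at least 2.29-fold higher.

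Genes of resting cells were lower as a group. In the list of FOXO and quiescence genes 12 of 31 were lower and 0 higher, and the list median was −0.87 relative to the median gene. FOXO factors are held out of the nucleus by insulin and growth factor signalling and turn on their target genes in its absence. The list is not limited to such targets, and a part of FOXO factors in the differences was not tested. PDK4, which shuts pyruvate out of the citric acid cycle, read 1882 in vector and 257 in YAP-WT, 7.33-fold lower. FBXO32, a ubiquitin ligase of muscle wasting, stood at 2422 in vector and 652 in YAP-WT, 3.71-fold lower, and KLHL24 measured 1325 in vector and 494 in YAP-WT, 2.68-fold lower. TXNIP, which limits glucose uptake, read 13724 in vector and 6109 in YAP-WT, 2.25-fold lower. FOXO4 was at 337 in vector and under the floor in YAP-WT, at least 4.63-fold lower. Several YPEL genes were lower: YPEL3 stood at 1305 in vector and 404 in YAP-WT, 3.23-fold lower, YPEL2 measured 620.2 in vector and 300.4 in YAP-WT, 2.06-fold lower, and YPEL5 read 4152 in vector and 2025 in YAP-WT, 2.05-fold lower. The forkhead element (GTAAACA, either strand) was in 4 of 26 (15.4%) of the windows of this list and 2.45% of all.

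The medium of both cultures contained hydrocortisone. The list of glucocorticoid-responsive genes went both ways, 5 of 22 lower and 2 higher. MAOA stood at 7457 in vector and 1948 in YAP-WT, 3.83-fold lower, and SERPINA3 measured 1807 in vector and 273 in YAP-WT, 6.62-fold lower. SGK1, a kinase induced by glucocorticoids and by growth factors, read 4619 in vector and 14475 in YAP-WT, 3.13-fold higher. KLF9 stood at 911 in vector and 312 in YAP-WT, 2.92-fold lower, while another of its probe sets differed by 0.55 (log2). Of the circadian clock genes 3 of 15 were lower and 1 higher. The PAR bZIP output factors TEF and DBP were lower, TEF at 315 and under the floor, at least 4.32-fold lower, and DBP at 337 and 159, 2.12-fold lower. PER2 measured 529 in vector and 250.1 in YAP-WT, 2.11-fold lower, and CRY1 read 626 in vector and 1635 in YAP-WT, 2.61-fold higher.

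Some genes of retinoid and aldehyde metabolism were lower. Of 33 aldehyde and alcohol dehydrogenase and aldo-keto reductase genes 8 were lower and 2 higher, and the list median was −0.43. ALDH1A3 and RDH10, which make retinoic acid from retinol in sequence, were at 2296 and 631, 3.64-fold lower, and 2552 and 1230.1, 2.08-fold lower. DHRS3, which turns retinal back to retinol, stood at 2731 in vector and 1094 in YAP-WT, 2.50-fold lower. CRABP2, which carries retinoic acid to its receptor, was at 715 in vector and under the floor in YAP-WT, at least 9.81-fold lower. CYP26B1, which degrades retinoic acid, measured 185 in vector and 593 in YAP-WT, 3.21-fold higher, and STRA6, the retinol uptake receptor, read 106 in vector and 331 in YAP-WT, 3.13-fold higher. The retinoid list as a whole had 3 of 20 higher and 5 lower. AKR1C3 and AKR1C2, steroid-active reductases and NRF2 targets, were at 2418 and 459.6, 5.26-fold lower, and 5433 and 2512, 2.16-fold lower. CYP1B1 stood at 5161 in vector and 1655 in YAP-WT, 3.12-fold lower. SELENOP, a selenium carrier, measured 6253 in vector and 1131 in YAP-WT, 5.53-fold lower. Over the whole NRF2 and glutathione list 1 of 33 was higher and 6 lower, and the list median was 0.05 relative to the median gene, so the lower ones did not shift the list.

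Cholesterol genes leaned the other way. Of 25 measured 6 were higher and 0 lower, and the list median was 0.57. ACAT2, at the first step of the mevalonate route, read 2315 in vector and 7834 in YAP-WT, 3.38-fold higher. DHCR7, at the last step of cholesterol synthesis, stood at 1889 in vector and 5157 in YAP-WT, 2.73-fold higher, and FDPS measured 8603 in vector and 17428 in YAP-WT, 2.03-fold higher. In fatty acid synthesis 2 of 25 were higher and 0 lower, a share below the background of 9.11%. ELOVL6, which lengthens fatty acids, read 1944 in vector and 4830.2 in YAP-WT, 2.48-fold higher. Serine, one-carbon and polyamine genes were higher in 5 of 29 and lower in 0. PHGDH, at the entry of serine synthesis, stood at 269.8 in vector and 908 in YAP-WT, 3.37-fold higher, and GLDC, which splits glycine, measured 123 in vector and 770.2 in YAP-WT, 6.27-fold higher. ODC1, at the entry of polyamine synthesis, read 4419 in vector and 12265 in YAP-WT, 2.78-fold higher. These 3 genes were named because they passed 2-fold, and 24 of the 29 members of the list did not.

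Survival genes differed gene by gene. In the BCL2 family 3 of 17 were higher and 2 lower. BCL2L1, which encodes the survival protein BCL-xL, stood at 1121 in vector and 3836 in YAP-WT, 3.42-fold higher, and the killers BAX and BCL2L11 were lower, at 271 and 107, 2.54-fold lower, and 1179 and 499, 2.36-fold lower. BAK1, another killer, measured 475 in vector and 1008 in YAP-WT, 2.12-fold higher. Of 30 p53 targets 2 were higher and 4 lower.

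Basic machinery hardly differed. Of 74 respiratory chain and ATP synthase genes 0 differed 2-fold in either direction, likewise 0 of 57 translation factors and 0 of 58 nucleolar ribosome biogenesis genes. Of 24 Ras, Rap and Arf genes, which switch signalling and vesicle traffic, 0 differed 2-fold, and of 49 Rab genes 0 were higher and 3 lower. The largest respiratory chain difference was COX4I2, at 388 and 226. Among 55 cytosolic ribosomal protein genes 1 was higher, RPL39L at 221 and 444, 2.01-fold higher, and 1 lower, RPL10L at 643 and 299, 2.15-fold lower; both are copies with narrow expression. Of 75 mitochondrial ribosomal protein genes 2 were higher, MRPL12 at 1204 and 3277, 2.72-fold higher, and MRPS34 at 951 and 1977, 2.08-fold higher. Of 41 proteasome genes 1 was lower, PSME1, an interferon-inducible activator subunit, at 4851 and 2088, 2.32-fold lower. In all, 9 of the 136 lists held 0 members that differed 2-fold, and 19 had a median at least 0.5 (log2) from the median gene, 11 above and 8 below. Of those 8, the immune marker list rested on 1 measured gene, CD14, at 312 and under the floor, at least 4.28-fold lower.

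Across all windows with a RefSeq promoter, the elements of the division genes were also more frequent among the genes at least 4-fold higher: the cell-cycle homology region in 33 of 145 (22.8%) against 11.7% of all, and the CCAAT box (CCAAT, either strand) in 70 of 145 (48.3%) against 36.9%. These sets overlap, since many of the genes at least 4-fold higher are division genes, and no test was made. Cornified envelope windows held the TATA box in 7 of 14 (50%) and the TEAD element in 7 of 14 (50%), over 14 windows that include near-copies of the same gene.

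**Figure D5:**
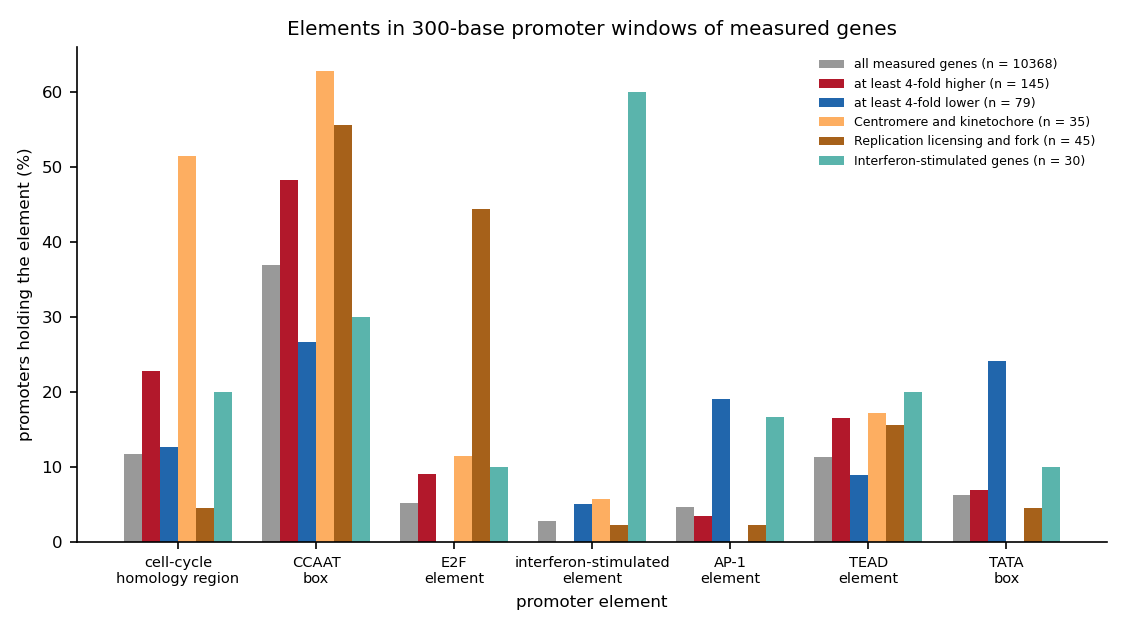
Share of 300-base promoter windows, in percent, that hold each of 7 sequence elements, for all measured genes with a window (grey), the genes at least 4-fold higher (red) or lower (blue) in YAP-WT, and 3 gene lists. The cell-cycle homology region reaches 51.4% in kinetochore windows, the E2F element 44.4% in replication windows and the interferon-stimulated element 60% in interferon-stimulated genes, against 11.7%, 5.11% and 2.78% of all windows.

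The levels of leading genes in the arrays of the YAP mutants are given side by side; those comparisons share the vector array. KCNT2 stood at 4360.0 in YAP-WT against 359 in vector and 439.7 in YAP-W1W2, and under the floor in YAP-S94A. CLIC3 stood at 6447 in YAP-WT against 746 in vector, 619.7 in YAP-S94A and 1676 in YAP-W1W2. These were highest in YAP-WT of all 4 arrays. GJA5 was at 505 in vector, 4682 in YAP-WT, 5595 in YAP-W1W2 and 1269.5 in YAP-S94A, so that YAP-WT and YAP-W1W2 lay close together. In the same order HJURP was at 247, 1848, 2066 and 2261, lowest in vector and similar in the 3 YAP arrays. PNRC1 was at 7582, 1129, 761 and 596, highest in vector. KRT15 was at 7699, 678, 1523 and 6996, with YAP-S94A next to vector. KRT13 was at 779, 138, 1731 and 565, with YAP-W1W2 above vector.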

How the data were processed

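RNA of 4 MCF10A cultures was hybridized to Affymetrix arrays, 1 array each, and the number of arrays limits the precision. Per the submitters' processing notes the software was GCOS, with no version or scaling target given. The deposited values are linear intensities, 1 per probe set, and were used as deposited, since the 2% trimmed means of the arrays differed by at most a ratio of 1.098. Of 54675 probe sets, 62 controls were left out. GEO's platform annotation gave 41091 probe sets 1 gene symbol, 1801 several and 11721 none; 41037 symbols matched RefSeq by Entrez identifier and 0 changed.

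A floor at the 40th percentile (72.9) was set before log2, a gene was represented by its probe set of highest mean, and genes whose mean was under the median over probe sets (113.6) were left out as dim. A 2-fold difference stood in for a test. Python 3.11.15 was used with numpy 2.4.6, pandas 2.3.3, scipy 1.17.1 and matplotlib 3.10.9, and the code was tested on simulated data. Scaling, floor, probe-set choice and filter were varied. The genes, lists and rules were chosen with earlier results of these data known. The genes described are those among the 40 highest and 40 lowest above the floor on both arrays, the 15 largest bounds in each direction, YAP1, up to 8 members per list and direction past 2-fold (the 3 largest where none passed), the cell type markers, and ACTB, GAPDH and TBP. BUB1, BUB1B, CCND1, CDKN1A, CDKN1B, CDKN1C, CDKN2A, CDKN2D, CENPA, COL4A5, COL4A6, FZD4, GINS4, IFIH1, ILK, KIF11, MCM2, MCM3, NOTCH1, NOTCH2, ORC6, PCNA, TXNIP, UNC50, YPEL2, YPEL5 and ZNRF3 were added after their values were seen. Lists were matched by symbol, so some hold antisense RNAs. Some genes are not reported here.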

Additional observations from a re-analysis of the deposited data

Results flagged for a closer look

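Some signal lay outside the gene table. Of 3247 probe sets with no gene symbol and a mean above the filter, 243 (7.48%) had 2-fold or more signal in YAP-WT and 254 as much in vector. Of 1073 such probe sets with several symbols, 56 (5.22%) lay on the YAP-WT side and 57 on the vector side. They name no single gene and entered no list.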

How the results depend on the processing

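Of the measured genes that differed 2-fold, 64.8% were higher. The share was 50.1% with each array centred on its median, 58.0% after quantile normalization, 69.1% with the floor at the 60th percentile, 60.4% without the filter on dim genes, 61.9% with the filter on the vector and YAP-WT arrays alone and 76.3% with the filter at the 75th percentile. The lower genes numbered 352 with the floor at the 60th percentile, 397 with the mean over probe sets and 192 with the filter at the 75th percentile, against 631. The higher genes numbered 748 with the mean over probe sets and 619 with the filter at the 75th percentile, against 1162; a stricter filter leaves fewer genes to count. Without the filter 12 lists were shifted, against 19; the cause was not tested. Of the genes described, 343 were past 2-fold as reported, 321 with centred arrays, 327 after quantile normalization, 294 with the floor at the 60th percentile, 248 with the mean over probe sets and 243 without probe sets ending in _s_at or _x_at. COL1A1 reversed to −0.74 (log2) with the mean over probe sets. Without the _s_at and _x_at probe sets GAS1 reversed to 0.69, GINS2 to −0.37 and SERPINB13 to 0.14. Without the filter the immune marker median reversed to 0.017, and the chemokine and histone medians went to 0. No paired analysis was possible because each condition had 1 array. Culture, labelling and hybridization cannot be told apart from the construct with 1 array each, and dim genes carry the largest scatter.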
